A study of Homo sapiens with 10 samples.

Results

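The heat shock proteins, their DNAJ cochaperones, the BAG cochaperones and the heat shock factor HSF1 were described across clonal lines of chromate-transformed human bronchial epithelial cells. Genes were chosen by symbol: HSPA, HSPB, HSPD, HSPE, HSPH, HSP90, DNAJA, DNAJB and DNAJC genes, HSF1 and BAG1 to BAG5, without pseudogenes and without HSPBP1 and HSPBAP1. They came to 73 of the 18377 genes that the array annotation names alone on at least 1 probe set, here called a transcript cluster, and each gene was read from its cluster with the highest mean. The 73 were 13 genes of the HSP70 family (HSPH1 included), 3 of the HSP90 family, 2 of the mitochondrial chaperonin, 6 small heat shock proteins, 4 DNAJA, 12 DNAJB and 27 DNAJC genes, 5 BAG genes and HSF1. HSF2 was not analysed here, and HSPA1A and HSPA1B, the classical inducible HSP70 genes, shared all their clusters and are given as a pair.

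The cells were BEAS-2B, a virus-immortalised line of normal human bronchial epithelium. A culture was kept in 0.5 µM potassium chromate, a hexavalent chromium salt, for 30 days and then grown in soft agar for 3 weeks, where anchorage-independent colonies form. Single colonies were picked and expanded as monolayers, so each line is 1 clone: 3 lines from large colonies (Cr_large), 3 from small colonies matched in size to the untreated ones (Cr_small) and 3 control lines from colonies that arose in soft agar without chromate. The parental BEAS-2B cells, which did not pass through soft agar, were measured on 1 array. All 10 arrays carry the same treatment text in their labels, with the chromate exposure, also for control and parental cells, and the groups were taken from the titles and cell labels and from the study's methods. No repeat of the exposure was described, so the p-values below measure the spread between clones of 1 exposed and 1 untreated culture.

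Heat shock proteins are chaperones, which bind unfolded proteins and help them to fold, to move into organelles or to be degraded. HSP70 works in a cycle driven by ATP: DNAJ proteins deliver clients and start hydrolysis, and nucleotide exchange factors (the BAG proteins, HSPH1, HSPA4 and HSPA4L) release them, while HSP90 acts later on kinases and receptors. HSF1 is the factor that binds heat shock elements in the promoters of the inducible members when cells are stressed, and many tumour cells carry high levels of these chaperones.

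A heat shock element is a run of GAA units in alternating orientation. Those found are shown because they are the sequence through which HSF1 is known to act on inducible chaperone genes. RefSeq promoter windows (assembly GRCh38.p14, 250 bases before to 50 after the transcription start) matched 65 of the 73 genes. They were searched on both strands for 3 perfect units with 2 bases between neighbours, that is GAA, 2 bases, TTC, 2 bases and GAA, or the same beginning with TTC. Such an element was in 7 of the 65 windows (10.8%) and in 166 of all 27305 windows (0.608%). The 7 genes were DNAJA1, DNAJB6, HSPD1, HSP90AA1, HSP90AB1, HSPA6 and HSPA8. The matches below, of 30 bases each and 5′ to 3′ on the gene's strand, have the element in capitals.
DNAJA1 at chr9:33025268-33025297, plus strand: gccgggcgGAACTTTCCAGAAcgctcggtg
DNAJB6 at chr7:157336865-157336894, plus strand: agagccgaGAACCTTCGCGAAggtggggcg
HSPD1 at chr2:197500061-197500090, minus strand: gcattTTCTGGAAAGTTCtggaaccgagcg
HSP90AA1 at chr14:102087111-102087140, minus strand: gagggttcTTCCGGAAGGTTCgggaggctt
HSP90AB1 at chr6:44247770-44247799, plus strand: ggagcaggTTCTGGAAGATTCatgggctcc
HSP90AB1 at chr6:44247823-44247852, plus strand: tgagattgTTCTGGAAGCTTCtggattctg
HSPA6 at chr1:161524458-161524487, plus strand: cggaaaggTTCGCGAAAGTTCgcggcggcg
HSPA8 at chr11:123062345-123062374, minus strand: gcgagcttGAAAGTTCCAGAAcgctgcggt
HSPA8 at chr11:123062170-123062199, minus strand: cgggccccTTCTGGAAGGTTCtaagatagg
Counted from the transcription start, the first base of the element lay at -131 in DNAJB6, at -88 in HSP90AA1, at -165 and -112 in HSP90AB1, at -74 in HSPA6, at -230 and -55 in HSPA8 and 3 bases past the start in DNAJA1. HSPD1 held a pair of overlapping matches, at -245 and -240, of which the first is shown. A match is a description of letters and not of a bound site.

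Values are log2 of the deposited intensities, and differences between groups are given on that log2 scale with the standard error (SE) of the limma fit and a p-value adjusted by Benjamini-Hochberg over all 28869 clusters. Over all clusters and arrays the median was 5.86, and 58 of the 73 genes had a mean above it. The array medians lay between 5.82 and 5.90. Among the control lines, line 2 stood farthest from its group: its median absolute deviation from the group mean was 0.110 over the genes above the median, against 0.0794 in control 1 and 0.0653 in control 3. Of the epithelial markers, KRT7, KRT8 and KRT18 were above the median intensity on every array while EPCAM and CDH1 were below it in every line (4.83 to 5.71 and 4.81 to 5.0 in the Cr lines), and all 4 mesenchymal markers (VIM, FN1, COL1A1, CDH2) were above it. KRT19 was at 6.07 to 6.27 in the control lines and ranged from 5.79 to 10.07 in the Cr lines, without a call (1.77 ± 0.82, SE, adjusted p = 0.235). The labelled bronchial epithelium was thus seen in KRT7, KRT8 and KRT18, unevenly in KRT19, and not in EPCAM or CDH1, its defining surface proteins. None of the 4 leukocyte and endothelial markers (PTPRC, PECAM1, CDH5, CD3E) had a mean above the median. The log2 of their summed intensities was 6.88 to 6.91 in the control and 6.93 to 7.05 in the Cr lines. Of the 6 epithelial genes, 3 were higher in the Cr lines (KRT7, KRT8 and KRT18, the last by 0.82), and KRT19, EPCAM and CDH1 were not called. The log2 of the list's summed intensities, set mostly by those 3 bright genes, moved with them. It was 12.9 to 13.2 in the control lines, 13.5 to 13.9 in the Cr lines and 13.2 in the parental cells. The part of that shift in the results below was not tested. The mesenchymal list had no call. The log2 of its summed intensities was 13.7 to 14.3 in the control, 13.5 to 13.9 in the Cr lines and 13.5 in the parental cells.

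The first comparison set the 6 Cr lines against the 3 control lines and asked which chaperone genes differ once colony formation itself is matched. Of the 73 genes, 12 were higher in the Cr lines (16.4%) and 6 were lower (8.22%) at an adjusted p under 0.05, and 55 were not called. Over all 18377 genes, 7.00% were higher and 7.57% lower, so the share of higher genes stood above the background and the share of lower genes near it. All calls fell among the 58 genes above the median intensity (20.7% higher, 10.3% lower), where the background was 10.4% higher and 11.3% lower. The median difference was 0.046, against 0.025 over all genes. In 17 genes (23.3%) all 6 Cr lines lay above all 3 control lines, against 11.3% of all genes. In 7 (9.59%) all lay below, against 9.81% of all genes. The 18 called genes were all among these 17 and 7. Most calls were small: 6 of the 18 passed 1.5-fold and 1, HSPA12A, passed 2-fold. The count moved when a control line was left out, which also makes that group smaller. Counts over all genes under the same omissions are not given here. Without control 1 or without control 3 the higher count fell to 7, and without control 3 the lower count fell to 3, whereas leaving out control 2, the line farthest from its group, gave 11 higher and 6 lower. RNA was taken from whole cultures, so fewer cells that express a gene and less RNA per cell cannot be told apart.

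**Figure D1:**
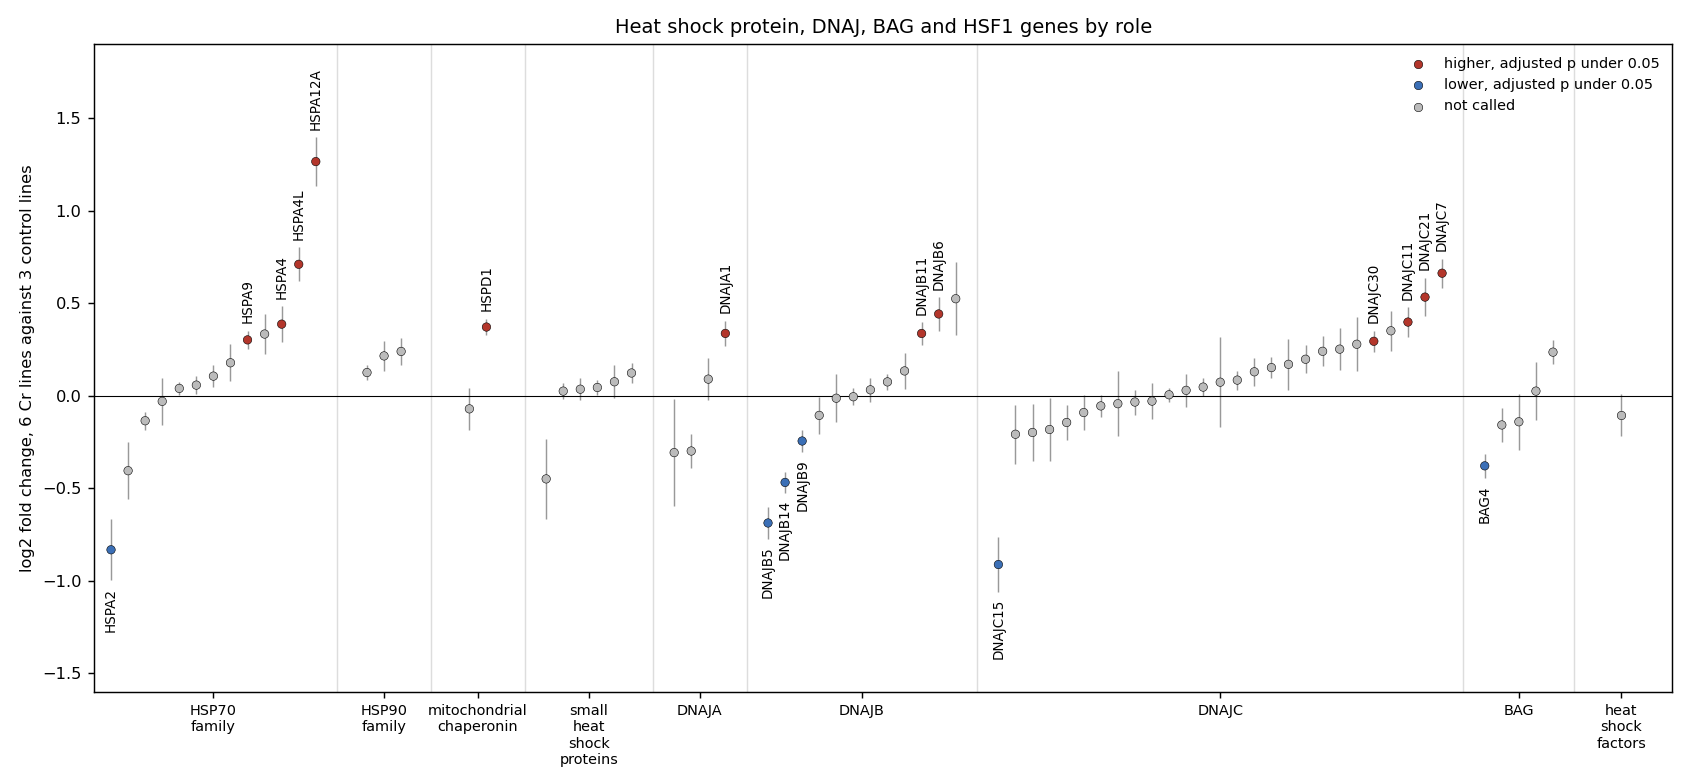
Each point is 1 of the 73 genes, grouped by role on the horizontal axis, and the vertical axis is the log2 difference between the means of the 6 Cr lines and the 3 control lines with its standard error. Red points are higher (12 genes) and blue points lower (6 genes) at an adjusted p under 0.05, the extremes being HSPA12A at 1.26 and DNAJC15 at -0.91.

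In the HSP70 family, 4 of 13 genes were higher in the Cr lines, 1 was lower and 8 were not called. Counts by role, here and below, stand against 7.00% higher and 7.57% lower over all genes. The largest difference of all 73 genes was in HSPA12A, a distant member of the family. HSPA12A measured 5.69, 5.83 and 5.65 in the control lines, 6.67, 7.27 and 6.91 in Cr_small, 6.84, 7.05 and 7.21 in Cr_large and 6.14 in the parental cells. The lowest Cr line lay above the highest control line, and the parental value lay between the groups. The mean was 2.40-fold higher in the Cr lines (1.26 ± 0.13, SE, adjusted p = 0.00127). HSPA4L, a nucleotide exchange factor of the HSP110 branch, measured 7.60, 7.56 and 7.68 in the control lines, 8.32, 8.38 and 8.18 in Cr_small, 8.13, 8.33 and 8.57 in Cr_large and 8.49 in the parental cells. Here the control lines were the ones apart: the parental cells lay within the Cr range and the mean of the control lines was 1.84-fold below the parental value. The Cr lines were 1.64-fold higher than the control lines (0.71 ± 0.092, SE, adjusted p = 0.00287). Its relative HSPA4 was 1.31-fold higher (0.39 ± 0.097, SE, adjusted p = 0.0414), with 10.82, 10.51 and 10.84 in the control lines, 10.98 to 11.25 in the Cr lines and 10.48 in the parental cells. That call was lost when any 1 of the 9 lines was left out, with an adjusted p of 0.0503 to 0.111, and also with quantile normalization run again (0.0551) and with median centring (0.0636).

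HSPA9, the mitochondrial HSP70, was higher by a small and even amount. It measured 11.53, 11.54 and 11.56 in the control lines, 11.79, 11.86 and 11.84 in Cr_small, 11.86, 11.75 and 11.97 in Cr_large and 11.33 in the parental cells. The control lines lay close together, and all 6 Cr lines lay above them (1.23-fold higher, 0.30 ± 0.049, SE, adjusted p = 0.00731). HSPA2, which is most abundant in testis, was the HSP70 gene that was lower. It measured 6.93, 6.66 and 7.25 in the control lines, 6.18, 5.86 and 6.30 in Cr_small, 6.43, 5.96 and 5.95 in Cr_large and 7.14 in the parental cells. The groups did not overlap, although the control lines spread widely, and the parental cells lay with the control lines (1.78-fold lower in the Cr lines, -0.83 ± 0.17, SE, adjusted p = 0.0169). The adjusted p was 0.0632 without control 1 and 0.0700 without control 3.

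The other 8 genes of the family were not called. HSPA8, the constitutive cytosolic HSC70, measured 13.25, 13.30 and 13.29 in the control lines and 13.26 to 13.36 in the Cr lines. Its difference was 0.039, with a 95% interval of -0.045 to 0.12. HSPA5, the HSP70 of the endoplasmic reticulum known as BiP, measured 11.73, 11.49 and 11.69 in the control lines, 11.97, 11.74 and 11.84 in Cr_small, 12.18, 12.27 and 11.82 in Cr_large and 11.51 in the parental cells. All 6 Cr lines exceeded the control lines, and the difference did not pass the threshold (0.33 ± 0.11, SE, adjusted p = 0.0971), though without Cr_large 3 it did (0.40, adjusted p = 0.0194). HSPH1, or HSP105, another exchange factor, overlapped between the groups (10.31 to 10.65 in the control and 10.51 to 10.95 in the Cr lines, 0.18 ± 0.10, SE, adjusted p = 0.338). HSPA13 had the lowest difference of the uncalled genes in this family (difference -0.41, adjusted p = 0.149), and HSPA6, HSPA12B, HSPA14 and HSPA1L lay between -0.14 and 0.10.

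HSPA1A and HSPA1B encode almost the same protein, and 5 clusters match both genes, so no signal can be given to either. All 5 were higher in the Cr lines, by 1.77-fold to 1.84-fold, with adjusted p-values of 0.0113 to 0.0172 and no overlap between the groups. The clusters give almost parallel values and are not 5 measurements. On 1 of them the signal was 10.15, 9.60 and 9.99 in the control lines, 10.71, 10.57 and 10.88 in Cr_small, 11.18, 10.93 and 10.46 in Cr_large and 10.80 in the parental cells. The parental value lay inside the range of the Cr lines on all 5 clusters, and the control lines lay below it. A cluster of HSPA6 and HSPA7 together had 0.26 (adjusted p = 0.0507), just short of the threshold.

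**Figure D2:**
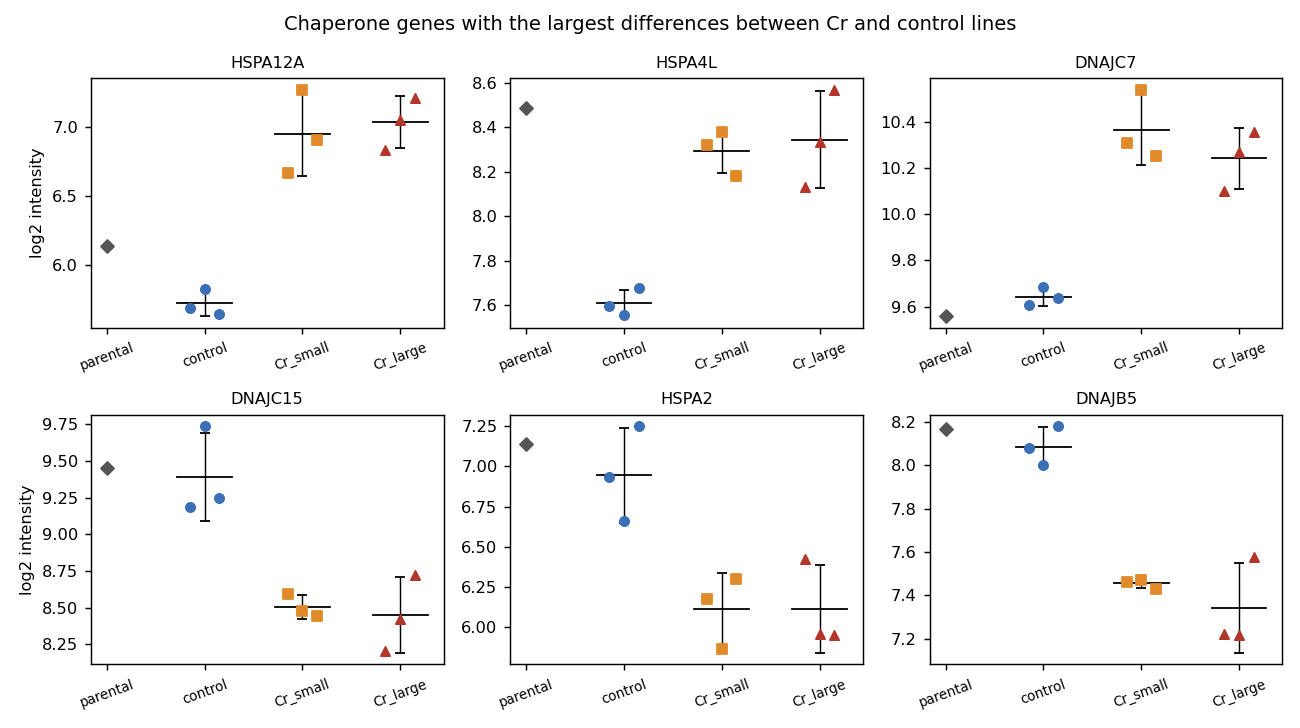
Log2 intensity of the 3 genes that were highest and the 3 that were lowest in the Cr lines relative to the control lines, with 1 point per line, the mean as a bar and the standard deviation as whiskers (n = 3 lines per group, 1 parental array). For each gene the 6 Cr lines lie on 1 side of the 3 control lines, and the parental point lies with the Cr lines for HSPA4L and within or beside the control lines for DNAJC7, DNAJC15, HSPA2 and DNAJB5.

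None of the 3 HSP90 genes was called. In every one all 6 Cr lines exceeded all 3 control lines, which was also so in 11.3% of all genes. HSP90AA1, the inducible cytosolic HSP90, measured 12.20, 12.24 and 12.22 in the control lines, 12.34, 12.33 and 12.55 in Cr_small, 12.66, 12.35 and 12.36 in Cr_large and 12.15 in the parental cells. The single highest values were Cr_large 1 and Cr_small 3, and the difference was 0.21 ± 0.082, SE, adjusted p = 0.153. HSP90AB1, the constitutive cytosolic form, measured 12.63, 12.57 and 12.70 in the control lines, 12.76, 12.74 and 12.78 in Cr_small, 12.81, 12.72 and 12.73 in Cr_large and 12.39 in the parental cells. Its shift was small (0.12 ± 0.040, SE, adjusted p = 0.0969), and the parental cells lay below all 9 lines. HSP90B1, the HSP90 of the endoplasmic reticulum, was at 12.10 to 12.16 in the control and 12.23 to 12.57 in the Cr lines (0.24 ± 0.075, SE, adjusted p = 0.0878), with the parental cells inside the Cr range at 12.30. Without Cr_large 2, its highest line, HSP90B1 was called (0.19, adjusted p = 0.0463).

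The mitochondrial chaperonin is a pair of rings of HSPD1 (HSP60) closed by a lid of HSPE1 (HSP10), whose genes stand head to head on chromosome 2. HSPD1 measured 11.37, 11.47 and 11.45 in the control lines, 11.71, 11.87 and 11.80 in Cr_small, 11.84, 11.79 and 11.80 in Cr_large and 11.32 in the parental cells. Its control lines and its Cr lines formed tight groups that did not meet (1.29-fold higher, 0.37 ± 0.046, SE, adjusted p = 0.00226), and the call held without any 1 line. HSPE1 was not called. It was at 7.81, 8.27 and 7.73 in the control lines and at 7.78 to 7.99 in the Cr lines, a difference of -0.072 ± 0.11, SE, adjusted p = 0.787. Control 2 was the high line there, and without it the difference turned to 0.095 (adjusted p = 0.455).

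Of the 6 small heat shock proteins, which hold unfolding proteins without using ATP, none was called, and 5 of the 6 (HSPB3, HSPB6, HSPB7, HSPB8 and HSPB9) lay near or under the median intensity of all clusters. HSPB1, or HSP27, was the bright one. It measured 11.13, 10.77 and 11.12 in the control lines, 9.99, 10.51 and 10.38 in Cr_small, 11.19, 10.25 and 11.01 in Cr_large and 11.30 in the parental cells. The 3 Cr_small lines and Cr_large 2 lay below the control lines, while the other Cr_large lines lay among or above them, a range of 0.938 within Cr_large that was the widest of any of the 73 genes in that group. The difference of all Cr lines was -0.45 ± 0.21, SE, adjusted p = 0.25. HSPB8, which works with BAG3, was at 4.57 to 4.66 in the control and 4.61 to 4.72 in the Cr lines.

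**Figure D3:**
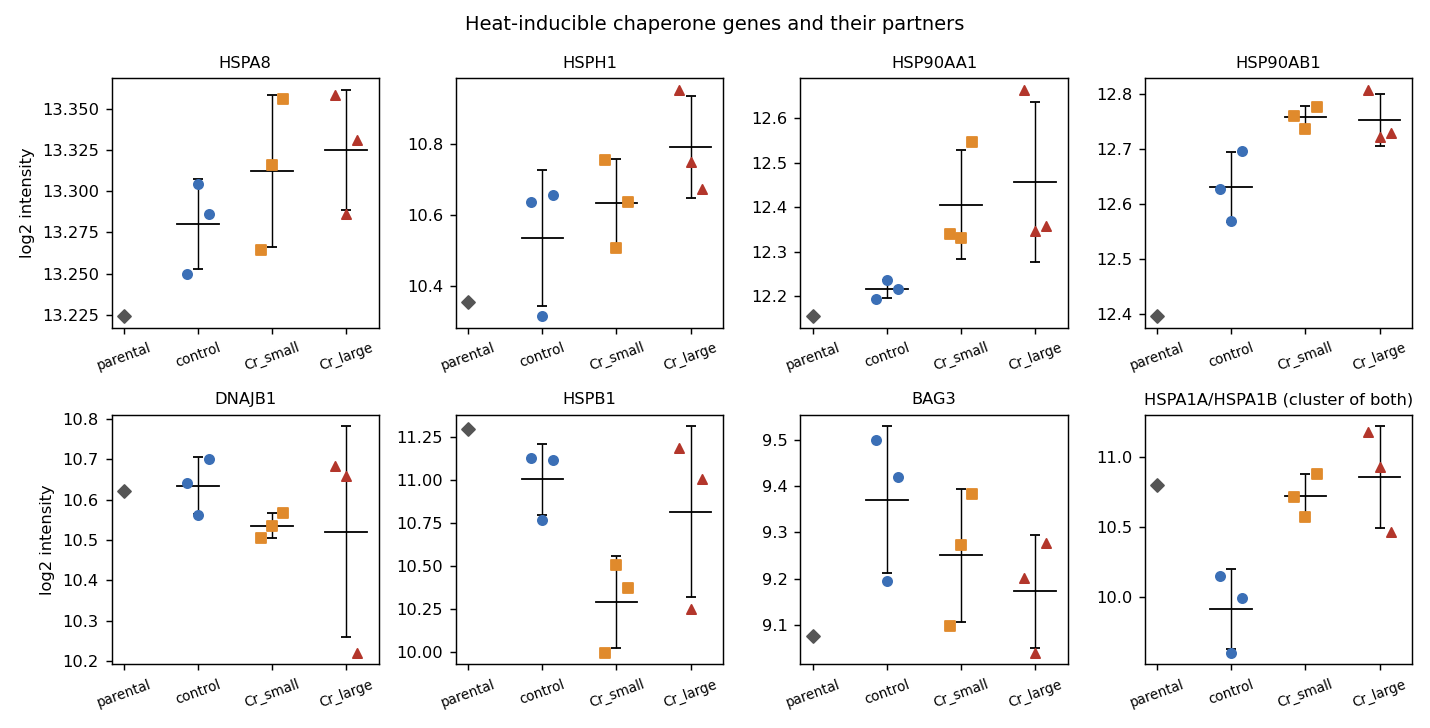
Log2 intensity of heat-inducible chaperones and their partners, 1 point per line with mean and standard deviation (n = 3 lines per group, 1 parental array), each panel on its own axis. The pair HSPA1A and HSPA1B, read on 1 shared cluster, was higher in all 6 Cr lines than in the control lines. HSP90AA1 and HSP90AB1 also lay higher in all 6 Cr lines, without a call. HSPA8, HSPH1, DNAJB1, HSPB1 and BAG3 overlapped between the Cr and control lines.

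DNAJA proteins are the classical cochaperones with a zinc finger, and 1 of 4 was called. DNAJA1, the cytosolic partner of HSC70, measured 9.22, 9.33 and 9.23 in the control lines, 9.47, 9.64 and 9.61 in Cr_small, 9.76, 9.48 and 9.63 in Cr_large and 9.30 in the parental cells. The parental cells lay with the control lines and all 6 Cr lines above them (1.26-fold higher, 0.34 ± 0.069, SE, adjusted p = 0.0189). The adjusted p was 0.0787 without control 1 and 0.0812 without control 3. DNAJA2, its close relative, was at 8.96 to 9.52 in the Cr lines and 9.55 to 9.62 in the control lines, without overlap and without a call (-0.30 ± 0.091, SE, adjusted p = 0.0779). It was called without Cr_large 1 (-0.35, adjusted p = 0.0304). DNAJA4 had the widest range of any gene within Cr_small. It measured 6.47, 7.04 and 7.50 in the control lines, 7.10, 6.10 and 7.01 in Cr_small, 6.69, 6.94 and 6.33 in Cr_large and 7.66 in the parental cells, and every line lay below the parental cells. DNAJA3, the mitochondrial member, had 0.089 (adjusted p = 0.722).

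Among the 12 DNAJB genes 2 were higher, 3 were lower and 7 were not called. DNAJB6, which keeps polyglutamine proteins from aggregating, was 1.36-fold higher (0.44 ± 0.091, SE, adjusted p = 0.0193), with 9.56, 9.51 and 9.23 in the control lines, 9.75 to 10.04 in the Cr lines and 9.73 in the parental cells. Control 3 was its lowest line, and without it the call was lost (0.34, adjusted p = 0.0614). DNAJB11, a cochaperone of BiP inside the endoplasmic reticulum, was 1.26-fold higher. It measured 10.41, 10.42 and 10.46 in the control lines, 10.93, 10.69 and 10.70 in Cr_small, 10.70, 10.83 and 10.74 in Cr_large and 10.53 in the parental cells (0.34 ± 0.061, SE, adjusted p = 0.0118). The Cr lines lay above the control lines and the parental cells, and the adjusted p was 0.0538 without control 1. The 3 lower genes moved by different amounts. DNAJB5, a cytosolic member, measured 8.08, 8.0 and 8.18 in the control lines, 7.46, 7.47 and 7.43 in Cr_small, 7.22, 7.22 and 7.58 in Cr_large and 8.17 in the parental cells. The parental cells matched the control lines, and all 6 Cr lines were lower (1.61-fold lower, -0.69 ± 0.085, SE, adjusted p = 0.00229). DNAJB14, anchored in the membrane of the endoplasmic reticulum, measured 7.44, 7.26 and 7.24 in the control lines, 6.82, 6.76 and 6.87 in Cr_small, 6.93, 6.85 and 6.81 in Cr_large and 7.31 in the parental cells. The parental cells again lay within the control range (1.38-fold lower in the Cr lines, -0.47 ± 0.055, SE, adjusted p = 0.00188), and a second cluster, which matches DNAJB14 and another locus, had -0.50 (adjusted p = 0.00688). DNAJB9, a repressor of stress signalling in the endoplasmic reticulum, had the smallest of the called differences: 6.52, 6.80 and 6.58 in the control lines and 6.36 to 6.41 in the Cr lines (-0.25 ± 0.059, SE, adjusted p = 0.0342), a call that was kept without control 1 or control 2 and lost without any of the other 7 lines (adjusted p from 0.0584 to 0.0757). Limma with a trend and robust moderation also left it uncalled (0.0732).

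DNAJB1, the heat-inducible HSP40 that partners inducible HSP70, was not called. It was at 10.64, 10.56 and 10.70 in the control lines, 10.51, 10.54 and 10.57 in Cr_small and 10.68, 10.66 and 10.22 in Cr_large, and Cr_large 3 was the low one (difference -0.11 ± 0.10, SE, adjusted p = 0.598). DNAJB4 had the largest difference without a call. It measured 10.79, 11.29 and 11.03 in the control lines, 11.44, 11.92 and 11.88 in Cr_small, 11.36, 11.79 and 10.97 in Cr_large and 10.76 in the parental cells. The Cr_small lines all exceeded the control lines and Cr_large 3 did not (0.52 ± 0.20, SE, adjusted p = 0.145). The other 5 (DNAJB2, DNAJB7, DNAJB8, DNAJB12 and DNAJB13) lay between -0.015 and 0.13.

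DNAJC is the mixed class, whose proteins share a J domain and little else, and 4 of its 27 genes were higher, 1 lower and 22 not called. DNAJC7, a repeat protein that binds both HSP70 and HSP90, measured 9.61, 9.69 and 9.64 in the control lines, 10.31, 10.54 and 10.25 in Cr_small, 10.10, 10.27 and 10.36 in Cr_large and 9.56 in the parental cells. The groups lay far apart next to their spread (1.58-fold higher, 0.66 ± 0.078, SE, adjusted p = 0.00188), and the parental cells lay just under the control lines. DNAJC21, a factor of ribosome assembly, measured 9.0, 8.86 and 8.99 in the control lines, 9.38, 9.47 and 9.27 in Cr_small, 9.37, 9.54 and 9.87 in Cr_large and 9.34 in the parental cells. The control lines lay under the parental cells and the Cr lines, Cr_large 3 being highest (1.45-fold higher, 0.53 ± 0.10, SE, adjusted p = 0.0160). Without control 1, 2 or 3 the adjusted p was 0.0533, 0.0592 and 0.0583. DNAJC11, of the mitochondrial membrane, was 1.32-fold higher (0.40 ± 0.079, SE, adjusted p = 0.0172), and the parental cells at 8.83 lay below every line. DNAJC30, also mitochondrial, was 1.23-fold higher (0.29 ± 0.057, SE, adjusted p = 0.0159), from 7.79 to 7.87 in the control to 8.02 to 8.27 in the Cr lines. It lost the call without control 1 (adjusted p = 0.0696) or control 3 (0.0648), and with a trend and robust moderation (0.0654).

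DNAJC15, a protein of the mitochondrial inner membrane, had the largest decrease among the 73 genes. It measured 9.19, 9.73 and 9.25 in the control lines, 8.59, 8.47 and 8.44 in Cr_small, 8.20, 8.42 and 8.72 in Cr_large and 9.45 in the parental cells. The 6 Cr lines lay below the control lines and the parental cells, and control 2 was the highest line (1.88-fold lower, -0.91 ± 0.15, SE, adjusted p = 0.00692). DNAJC19, part of the mitochondrial import motor, had the widest control range of all 73 genes. It measured 8.96, 10.07 and 8.93 in the control lines, 9.41, 9.27 and 9.21 in Cr_small, 9.62, 9.27 and 9.57 in Cr_large and 9.86 in the parental cells. Control 2 stood far above the other control lines, a range of 1.14. The difference between the groups was 0.072 ± 0.24, SE, adjusted p = 0.912, and without control 2 it was 0.45 with an adjusted p of 0.040. A second cluster of DNAJC19, with the lower mean, had -0.13 (adjusted p = 0.719). DNAJC3, an inhibitor of the kinase PERK in the endoplasmic reticulum, overlapped between the groups (8.82 to 9.0 against 8.93 to 9.31, 0.24 ± 0.082, SE, adjusted p = 0.113), and it was called without Cr_small 2 (0.29, adjusted p = 0.0384). DNAJC2, a ribosome-bound member, had no overlap and no call (0.35, adjusted p = 0.0797). The remaining 19 uncalled genes of the class had an adjusted p of 0.135 or more and lay between -0.21 and 0.28. DNAJC25 was read only on a cluster shared with its readthrough transcript, which had 0.44 (adjusted p = 0.0392).

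Of the BAG proteins, 1 of 5 was lower in the Cr lines and none was higher. BAG4, which also binds death receptors, measured 8.57, 8.32 and 8.51 in the control lines, 8.15, 8.05 and 8.01 in Cr_small, 8.19, 8.05 and 8.05 in Cr_large and 8.25 in the parental cells. All 6 Cr lines lay below the control lines with the parental cells between them (1.30-fold lower, -0.38 ± 0.066, SE, adjusted p = 0.00986). Without control 3 the adjusted p was 0.0504. BAG3, which is itself heat-inducible and steers clients to autophagy, measured 9.50, 9.19 and 9.42 in the control lines, 9.10, 9.27 and 9.38 in Cr_small, 9.20, 9.04 and 9.28 in Cr_large and 9.08 in the parental cells. Its groups overlapped (-0.16 ± 0.091, SE, adjusted p = 0.347). BAG2, an inhibitor of the ubiquitin ligase CHIP, had 0.024 with an interval of -0.34 to 0.38, and BAG5 had -0.14 with an interval of -0.49 to 0.21. HSF1 was at 8.77, 8.39 and 8.71 in the control lines, 8.63, 8.50 and 8.50 in Cr_small, 8.24, 8.65 and 8.57 in Cr_large and 8.41 in the parental cells. Its groups overlapped, with a difference of -0.11 ± 0.11, SE, adjusted p = 0.652, and the array reads its RNA and not its activity.

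Set beside the promoter search, 3 of the 7 genes with a heat shock element were higher (DNAJA1, DNAJB6 and HSPD1), none was lower and 4 were not called (HSP90AA1, HSP90AB1, HSPA6 and HSPA8), with a median difference of 0.21. Of the 58 genes with a window and no such element, 9 were higher, 5 lower and 44 not called, with a median of 0.045. Both counts stand against the 7.00% higher and 7.57% lower over all genes, and whether the element bears on the differences was not tested. HSPE1 was among the 58, though the HSPD1 matches also lie upstream of the HSPE1 start, outside the HSPE1 window.

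The groups of small and of large colonies were then set against the control lines separately, to ask whether colony size went with the chaperone genes. In Cr_small, 10 of 73 genes were higher (13.7%) and 5 lower (6.85%), where the background was 5.04% higher and 5.97% lower. In Cr_large there were also 10 and 5, where the background was 4.36% and 5.51%. All these calls fell among the 58 genes above the median intensity (17.2% higher and 8.62% lower in each group). Of all 11259 genes above it, 864 were higher and 1001 lower in Cr_small, and 729 and 931 in Cr_large. The counts among the 73 genes depended on the test. After Benjamini-Hochberg adjustment, the comparison test named in the study's methods gave 2 higher and 1 lower in Cr_small, and 0 and 0 in Cr_large. Limma with a trend and robust moderation gave 6 higher in each group. Shares over all genes under these tests, and under the omissions below, are not given here, so these counts have no background beside them. The 2 comparisons share the control lines, and 8 genes were higher and 5 lower in both. BAG1, an exchange factor that also binds BCL2, was called in Cr_small and not in the 6 Cr lines together (0.23 ± 0.065, SE, adjusted p = 0.0571), where it passed without Cr_small 2 or Cr_large 3 (adjusted p = 0.0243 and 0.0327), with quantile normalization run again (0.0278), with the mean of a gene's clusters (0.0488) and with clusters of 1 symbol only (0.0496). It measured 7.27, 7.27 and 7.30 in the control lines, 7.71, 7.52 and 7.76 in Cr_small, 7.41, 7.43 and 7.24 in Cr_large and 7.22 in the parental cells. The 3 Cr_small lines stood above all others (0.39 ± 0.075, SE, adjusted p = 0.0194), and the Cr_large lines overlapped the control lines (0.082 ± 0.075, SE, adjusted p = 0.626). DNAJC11 was called in Cr_small (adjusted p = 0.0264) and had an adjusted p of 0.0578 in Cr_large. DNAJA1 and DNAJC21 were called in Cr_large (adjusted p = 0.0338 and 0.0181) and had an adjusted p of 0.0524 and 0.0764 in Cr_small. These counts of 3 lines against 3 moved with single lines. Without control 1, 2 or 3 the Cr_small higher count was 4, without Cr_small 1 or 3 it was 5, and without control 1 or 3 the Cr_large higher count was 4. The lower counts fell to 3 in both groups without control 1 or 3, to 2 in Cr_small without Cr_small 2 or 3, and to 3 in Cr_large without Cr_large 2 or 3.

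Compared directly, no gene of the 73 differed between Cr_large and Cr_small at an adjusted p under 0.05 by limma, and over all 18377 genes the share was 0% as well. At an unadjusted p under 0.05 there was 1 of the 73, where over all genes there were 969 of 18377. It was BAG1, lower in Cr_large with a difference of -0.30 (95% interval -0.48 to -0.13). The comparison test named in the study's methods gave 2 without adjustment, and its count over all genes is not given here. The differences over the 73 genes ran from -0.41 in HSPA13 to 0.52 in HSPB1, where the interval was -0.048 to 1.10. For the called genes the intervals were narrower: -0.10 to 0.14 in HSPD1, -0.33 to 0.083 in DNAJC7 and -0.27 to 0.44 in HSPA12A. A missed threshold with 3 lines a group does not show that the groups were alike.

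The parental cells give the level of the culture before soft agar, from 1 array without a replicate. No test was possible, and a difference of 1.5-fold was used. No gene of the 73 was 1.5-fold higher in the control lines than in the parental cells and 2 were lower, HSPA4L and DNAJA4, where over all genes 3.03% were higher and 2.95% lower. The Cr lines were at least 1.5-fold above the parental cells in 6 genes (8.22%) and below in 5 (6.85%), against 3.93% and 5.21% of all genes. The 6 were HSPA12A (0.85), DNAJB4 (0.80), DNAJC7 (0.75), DNAJC2 (0.69), DNAJC11 (0.68) and HSPA4 (0.63), as log2 differences of the Cr mean from the parental value. The 5 were HSPA2 (-1.03), DNAJC15 (-0.98), DNAJA4 (-0.96), DNAJB5 (-0.77) and HSPB1 (-0.74). In the control lines the genes farthest above the parental cells were DNAJA2 (0.49), BAG5 (0.41) and DNAJC17 (0.35), and those farthest below were HSPA4L (-0.88), DNAJA4 (-0.65) and DNAJC19 (-0.54).

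The parental level was then placed among the lines. Of the 6 genes lower in the Cr lines, the parental value was within the range of the control lines in 5 and between the groups in BAG4. Of the 12 higher genes it was within the control range in 1 (DNAJA1), between the groups in 4 (HSPA12A, DNAJB6, DNAJB11 and DNAJC30), within the Cr range in 2 (HSPA4L and DNAJC21) and below all 9 lines in 5 (HSPA4, HSPA9, HSPD1, DNAJC7 and DNAJC11). For HSPA4L, DNAJC21 and the clusters of HSPA1A and HSPA1B the control lines thus lay below the parental level and the Cr lines around it, and for the last 5 genes both sets of clones lay above it. These positions rest on a single parental array and were not tested.

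**Figure D4:**
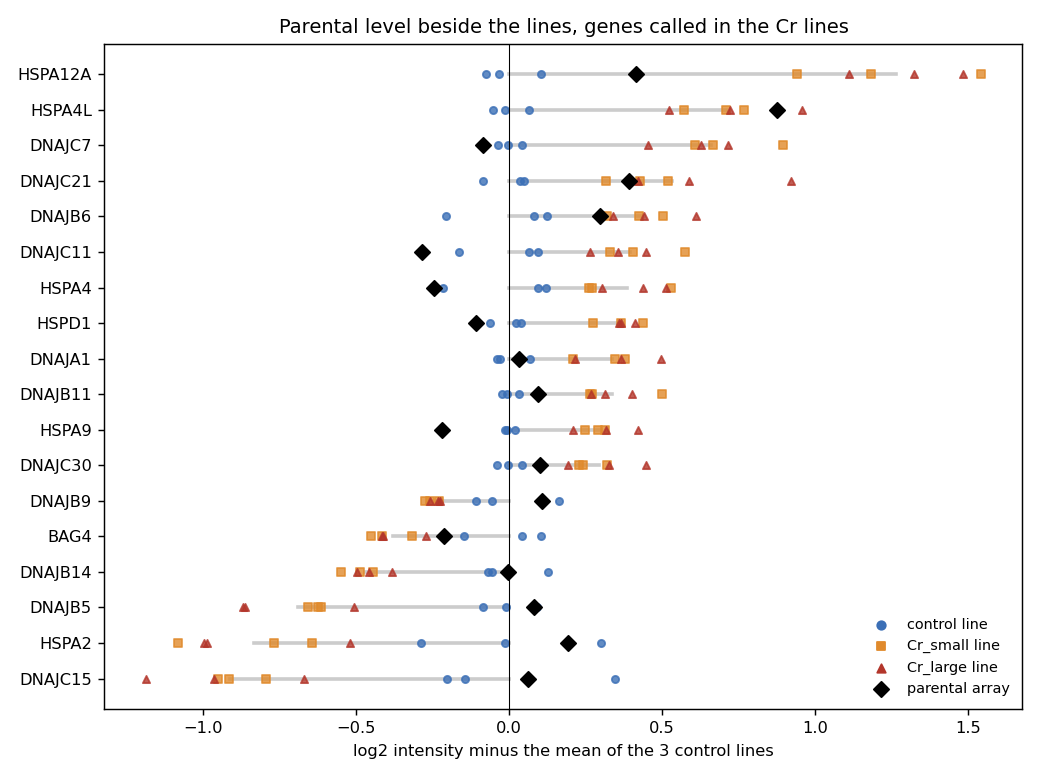
For the 18 called genes, each point is the log2 intensity of 1 line or of the parental array minus the mean of the 3 control lines (horizontal axis), and the grey bar runs to the mean of the Cr lines. The parental diamond lies among the control lines for 5 of the 6 lower genes, inside the Cr range for HSPA4L and DNAJC21, and to the left of all lines for 5 of the 12 higher genes.

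The 18 called genes lie on 12 chromosomes, and each was set beside the genes next to it in RefSeq order (GRCh38.p14), 10 on either side among those above the median intensity. Some moved as their neighbours did. The median difference of the 20 neighbours was -0.50 for DNAJB14 on chromosome 4, with 18 of 20 lower, and 0.50 for DNAJC21 on chromosome 5, with 18 of 20 higher. It was 0.41 for DNAJC7 on chromosome 17 (19 of 20 of the same sign), -0.36 for DNAJC15 on chromosome 13 (18 of 20) and -0.27 for BAG4 on chromosome 8 (17 of 20). Others stood out from theirs. HSPA4L, like DNAJB14 on chromosome 4, was higher while the median of its neighbours was -0.45 and only 2 of 20 shared its sign, and the neighbours of HSPA12A on chromosome 10, HSPD1 on chromosome 2, DNAJA1 and DNAJB5 on chromosome 9 and HSPA4 on chromosome 5 had medians between -0.041 and 0.026. HSPA2 on chromosome 14 had a neighbour median of -0.14 (15 of 20 of the same sign), and DNAJC30 on chromosome 7 had 0.10 (17 of 20). DNAJB11, DNAJC11 and HSPA9 had 0.15, 0.095 and 0.091 (14 of 20 each), and DNAJB9 had -0.035 (13 of 20). DNAJB6, near the end of chromosome 7, had 13 such neighbours, with a median of 0.045. Copy number was not analysed here, and the part of the neighbouring genes in these results was not tested.

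**Figure D5:**
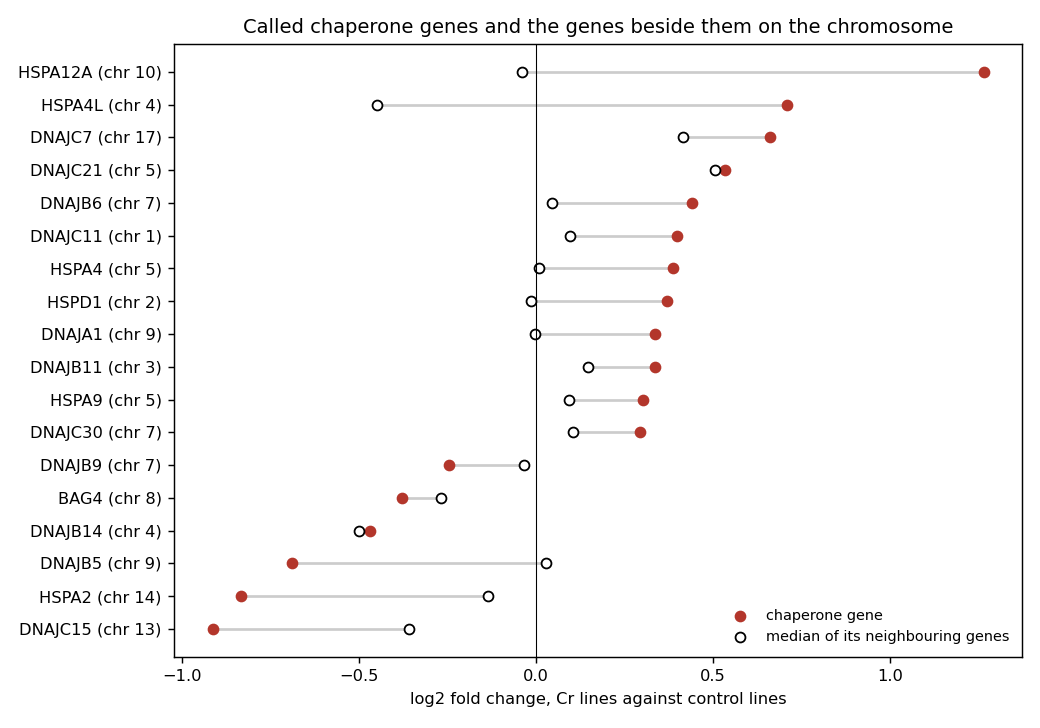
Filled points give the log2 difference between Cr and control lines of each of the 18 called genes and open points the median of its neighbouring genes on the chromosome (up to 20). The points nearly coincide for DNAJC21 and DNAJB14, and they lie on opposite sides of 0 for HSPA4L.

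Chaperones outside the chosen symbols were read from the same fit. Of the 8 subunits of the cytosolic chaperonin CCT, which folds actin and tubulin, 5 were higher in the Cr lines, none was lower and the median was 0.28. CCT4 had log2 difference 0.56 ± 0.056, SE, adjusted p = 0.000980, from 10.0 to 10.20 in the control to 10.55 to 10.69 in the Cr lines, and CCT5 had log2 difference 0.53 ± 0.049, SE, adjusted p = 0.000690. CCT7, CCT8 and CCT6A were higher by 0.33, 0.32 and 0.25, and CCT2, CCT3 and TCP1 were not called. Of 23 measured cochaperones of HSP70 and HSP90 (AHSA1, FKBP5, ST13 and TTC4 were not analysed here), 3 were higher, none was lower and the median was 0.12. The largest was CHORDC1, a cochaperone of HSP90. It was at 8.35, 8.29 and 8.21 in the control lines, 9.40, 9.72 and 9.56 in Cr_small, 10.41, 9.68 and 9.84 in Cr_large and 8.96 in the parental cells (2.80-fold higher, log2 difference 1.48 ± 0.15, SE, adjusted p = 0.00111). FKBP4, an immunophilin of steroid receptor complexes, was 1.53-fold higher (log2 difference 0.62 ± 0.10, SE, adjusted p = 0.00834), and SGTA was 1.32-fold higher (log2 difference 0.40 ± 0.099, SE, adjusted p = 0.0390).

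Of 7 further chaperones of the same families, HYOU1, an HSP70-like protein of the endoplasmic reticulum, was the 1 called gene, at 9.60, 9.18 and 9.46 in the control and 9.72 to 10.44 in the Cr lines (1.68-fold higher, log2 difference 0.75 ± 0.17, SE, adjusted p = 0.0290). TRAP1, the mitochondrial HSP90, had log2 difference 0.16 ± 0.087, SE, adjusted p = 0.311. CRYAB, a small heat shock protein with a symbol of its own, ranged from 5.73 to 8.21 in the Cr lines and was at 5.56 to 5.68 in the control lines and 7.65 in the parental cells, with no call (log2 difference 0.93 ± 0.37, SE, adjusted p = 0.163). CLPB and SERPINH1, chaperones of other families, were not called. All these counts stand against the same 7.00% higher and 7.57% lower over all genes, and several of the genes have processed pseudogenes whose share in a cluster's signal was not tested.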

How the data were processed

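RNA of 9 clonal BEAS-2B lines and of the parental cells was hybridised to 10 human gene arrays of 1 colour. The deposited values were linear intensities, summarised by the authors with the RMA16 routine of GeneSpring and quantile-normalized between arrays. Their methods also name a baseline transformation to the control median, which these values do not show. The intensities ran from 20.0 to 16980, and depth has no meaning for arrays, where their number limits the precision. Their log2 was taken here, and a mean per group was fitted to all 28869 transcript clusters with limma 3.58.1 in R 4.3.3 (6 residual degrees of freedom), with Benjamini-Hochberg adjustment over all clusters and a threshold of 0.05, two-sided. The contrast of Cr against control used the mean of both Cr groups. Of the clusters, 19310 named 1 gene, 1752 several and 7807 none in the platform annotation. For the 73 genes there were 76 clusters with 1 symbol, 12 matching clusters had several symbols, and 13 pseudogene clusters were left out.

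The genes and lists were chosen with earlier results of these data known. Named with their values were every called gene, a list of well-known family members, the 3 genes highest and the 3 lowest relative to the parental array in each set of lines, and the gene with the widest range in each group. Genes outside that rule (HSPA13, DNAJC2, DNAJA3 and the genes named in ranges) were picked after their values were seen, to account for the rest of their family. Alternatives were the t-test named in the methods, limma with a trend and robust moderation, a fit of the compared groups only, a filter on dim clusters, clusters with 1 symbol only, further quantile normalization, median centring, the mean of a gene's clusters, a replicate block and leaving out each line. The fit was tested on simulated data first.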

Additional observations from a re-analysis of the deposited data

Results flagged for a closer look

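Among 39 named genes, 1 had a line set apart from the rest of the 6 Cr lines by Dixon's gap test: HSF1 was at 8.243 in Cr_large 1, and the other 5 Cr lines lay between 8.50 and 8.65. Chance alone sets about 1 in 20 such groups apart.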

How the results depend on the processing

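The 12 higher and 6 lower genes of the Cr lines against the control lines were 20 higher by the t-test of the methods without adjustment. In Cr_small against control (10 higher, 5 lower) that test gave 17 and 9 without adjustment and 2 and 1 after Benjamini-Hochberg, in Cr_large (10 and 5) it gave 0 and 0 after adjustment, and between Cr_large and Cr_small it gave 2 without adjustment where limma gave 0. Limma with a trend and robust moderation called 6 higher in Cr_small and 6 higher in Cr_large, and a fit of only the groups compared called 3 lower in Cr_large. Causes were not tested. In the main limma fit, 31 of the 73 genes and 5621 of all 18377 had an unadjusted p under 0.05 for the Cr lines together. Shares over all genes under the other settings, omissions and parental threshold of this section are not given here.

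Leaving out 1 line at a time gave 7 to 13 higher and 3 to 6 lower for the Cr lines, 4 to 12 and 2 to 6 for Cr_small, 4 to 10 and 3 to 6 for Cr_large, and 0 to 0 between Cr_large and Cr_small. Of the 18 called genes, 9 (DNAJB14, DNAJB5, DNAJC11, DNAJC15, DNAJC7, HSPA12A, HSPA4L, HSPA9 and HSPD1) kept their call without any 1 line. The genes below the parental array by 1.5-fold in the control lines numbered 1 to 3, and with a 2-fold threshold they were 0, while the Cr lines had 0 above and 1 below it.

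The line numbers in the titles did not pair the lines: in 9 same-numbered pairs the correlation of deviations ran from -0.145 to 0.0984. With the number as a replicate block (parental array left out), 6 genes were higher in Cr_small, 11 higher and 5 lower in the Cr lines together, and 8 higher in Cr_large. In the Cr lines together, DNAJA1, DNAJB9 and HSPA4 lost the call under it (adjusted p = 0.0549, 0.0525 and 0.0841) and DNAJC3 gained it (0.0251).

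Among single genes the sign of the difference between Cr and control lines turned in 3 uncalled ones. BAG2 was -0.0127 with median centring and -0.0582 to 0.1587 without 1 line, DNAJC19 was -0.028 with the mean of its clusters and -0.1222 to 0.4466 without 1 line, and HSPE1 was -0.1751 to 0.0951 without 1 line. Over the 39 named genes and all settings, 676 values kept direction and call, 37 lost the call, 17 gained it and 10 changed sign.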
